A study of Mus musculus with 8 samples.

Results

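Type I interferon-stimulated genes were examined across 8 arrays of mouse bone marrow derived macrophages. The set held 37 genes, taken as every gene of a list of antiviral sensors, effectors and regulators, with all probe sets that the array annotation assigns to them. Of the 37 genes, 30 had at least 1 probe set of their own, 4 were named only by probe sets shared with other genes (Isg15, Ifi203, Ifi205 and Trex1) and 3 had no probe set named here (Rigi, Ifi44 and Xaf1). In all, 52 of 22626 probe sets named a member, 44 of them alone and 8 with other genes. Each gene is described by its brightest own probe set. All 30 genes passed the filter on low signal, which asked for a signal of at least 59.1, the pooled median, on any array. Of these, 28 would have passed on the arrays without IFN-gamma alone, and the other 2, Ifi204 and Mx2, passed only through an array with it.

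The series crossed genotype, IFN-gamma and calcitriol, with 1 array for each of the 8 combinations. Mice were wild type or carried the Vdr tm1 Rge knockout of the vitamin D receptor, written Vdr-/-. IFN-gamma is the type II interferon of T cells and NK cells, and calcitriol, 1alpha,25(OH)2D3, is the active hormone form of vitamin D. In each genotype 1 array came from untreated cells, 1 from cells with calcitriol, 1 from cells with IFN-gamma and 1 from cells with both. Marrow cells of all groups were grown with M-CSF at 50 ng/ml for 7 days, and treatments lasted 24 to 48 hours. No source used here gives the age of the mice, any pooling or the doses. No group had a replicate, so differences rested on contrasts repeated over other factors. The limma p-values combine the disagreement of those contrasts with a spread borrowed from other probe sets of like signal. With 3 or 2 residual degrees of freedom, or 1 in some alternative calcitriol fits, much of that spread is borrowed. A small p-value can therefore go with pairs that differ widely, as for Ifit1 below. A genotype difference cannot be told apart from one between mice or between cultures.

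Type I interferons signal through IFNAR1 and IFNAR2 and the kinases JAK1 and TYK2 to the transcription factors STAT2 and IRF9. These act at the interferon-stimulated response element (ISRE) in the promoters of antiviral genes. IFN-gamma uses another receptor and acts through the gamma-activated site (GAS), while IRF1, itself induced, also binds ISRE-like sequences. Macrophages use these genes to sense foreign nucleic acid, to block viral translation and budding, and to mark or degrade viral products.

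RefSeq promoter windows, from 250 bases before to 50 bases after the start site on GRCm38.p6, were matched for 28 of the 37 genes. The ISRE core, which is GAAA, any 2 bases and GAAA, was searched on both strands and was present in 14 of the 28 (50.0%), against 1079 of 27025 genes (3.99%). The GAS core TTCNNNGAA, which reads the same on both strands, was present in 8 of the 28 (28.6%), against 9.55% of all genes. Neither share was particular to this set. Of the IFN-gamma-inducible GTPase genes used below as a reference, 8 of 8 had the ISRE core and 4 of 8 (50.0%) the GAS core. Such a match describes letters and is not a measured binding site. The following 200 bases end at the base before the start site, run 5' to 3' on the gene's strand, and show the ISRE core or its reverse complement in capitals. These genes were picked after their matches were seen, because each carries the core upstream of its start and the results on IFN-gamma and calcitriol turn on them.
Ifit1, chr19:34640689-34640888, plus strand: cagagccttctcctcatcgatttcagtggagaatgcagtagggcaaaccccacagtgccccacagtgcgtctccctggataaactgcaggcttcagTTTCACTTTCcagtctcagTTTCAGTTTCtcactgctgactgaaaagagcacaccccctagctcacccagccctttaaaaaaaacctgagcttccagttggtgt
Ifit3, chr19:34583329-34583528, plus strand: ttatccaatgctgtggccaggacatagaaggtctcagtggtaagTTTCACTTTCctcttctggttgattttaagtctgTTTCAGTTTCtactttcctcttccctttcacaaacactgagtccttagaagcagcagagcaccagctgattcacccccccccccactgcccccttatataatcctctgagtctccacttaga
Rsad2, chr12:26456453-26456652, minus strand: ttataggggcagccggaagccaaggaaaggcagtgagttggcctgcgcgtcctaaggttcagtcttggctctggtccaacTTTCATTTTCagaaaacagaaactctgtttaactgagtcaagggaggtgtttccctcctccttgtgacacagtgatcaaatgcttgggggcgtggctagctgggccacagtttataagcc
Bst2, chr8:71537473-71537672, minus strand: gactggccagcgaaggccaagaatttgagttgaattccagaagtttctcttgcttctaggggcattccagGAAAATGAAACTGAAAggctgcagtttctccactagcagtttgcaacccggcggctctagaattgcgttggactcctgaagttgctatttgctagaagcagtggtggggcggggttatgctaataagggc
Isg15, chr4:156200819-156201018, minus strand: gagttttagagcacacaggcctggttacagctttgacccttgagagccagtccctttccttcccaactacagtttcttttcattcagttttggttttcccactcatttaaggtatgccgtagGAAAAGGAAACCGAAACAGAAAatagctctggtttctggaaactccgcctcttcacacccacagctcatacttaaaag
Ifit1 and Ifit3 each carry 2 separate matches, and Rsad2 has 1. In Bst2 2 matches overlap, and in Isg15 3 matches run into each other as a repeat of GAAA blocks. The windows of Ifit2, Oasl2 and Samhd1 did not hold these letters.

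Median signal per array ran from 53.4 to 68.2. Log2 signals of the array labelled wild-type calcitriol correlated with the other arrays at r of 0.741 to 0.781, and those of the array labelled Vdr-/- untreated at 0.77 to 0.809. These arrays also had the highest 3'/5' signal ratios of the Gapdh control, 7.67 and 4.82, a ratio that rises with truncated RNA. The Vdr-/- IFN-gamma array followed at 3.06, and the other 5 had 0.853 to 1.65. The same ratio of the beta-actin control was 4.08 on wild-type calcitriol and 3.27 on Vdr-/- untreated. It was 1.53 on Vdr-/- IFN-gamma, inside the 1.39 to 1.81 of the other 5. Between the untreated arrays Vdr went against the labels, at 6.7 where the label was wild type and 90.3 where it was Vdr-/-. A second Vdr probe set did so too, at 5.3 and 63.2. Elsewhere both probe sets were higher in wild type than in Vdr-/-. They read 51.5 and 118.1 against 2.6 and 9.8 with calcitriol, and 84.4 and 82.9 against 45.6 and 2.5 with IFN-gamma. With both agents they read 226.7 and 385.9 against 25.0 and 23.6. Macrophage marker genes, 7 of 7 measured, summed to 54770 to 59202 without IFN-gamma and 40005 to 55988 with it. By their brightest probe sets Csf1r and Lyz2 read 9769 or above on every array. A dimmer Csf1r probe set read 1024 on wild-type calcitriol and 1016 on Vdr-/- untreated. It read 4642 on wild-type untreated and 4196 on Vdr-/- calcitriol. In bulk RNA, fewer cells of a type and less RNA per cell cannot be told apart.

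Arrays with and without IFN-gamma were compared in 4 pairs, to ask how far the type II cytokine moves genes named for type I interferon. Of the 30 genes, 13 rose and 0 fell (limma adjusted p under 0.05 over 18058 probe sets). Over all probe sets tested, 2.15% were called higher. The median change of the 30 genes was 1.22 log2, against -0.08 over all probe sets. In all, 28 of 30 had a positive change, 24 of 30 had an unadjusted p under 0.05 (background 12.4%) and 20 of 30 were higher with IFN-gamma in 4 of 4 pairs. For 10 of 30 genes all 4 arrays with IFN-gamma lay above all 4 without it, which held for 3.07% of the probe sets tested. The count of calls fell to 1 without the wild-type calcitriol and Vdr-/- untreated arrays, and to 0 without the 2 arrays labelled untreated, while the median stayed at 0.93 and 0.96 and 26 of 30 were positive in each. These fits had 6 arrays and 2 residual degrees of freedom. Over all probe sets they called 53 and 24 in either direction, against 619 in the main fit.

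**Figure D1:**
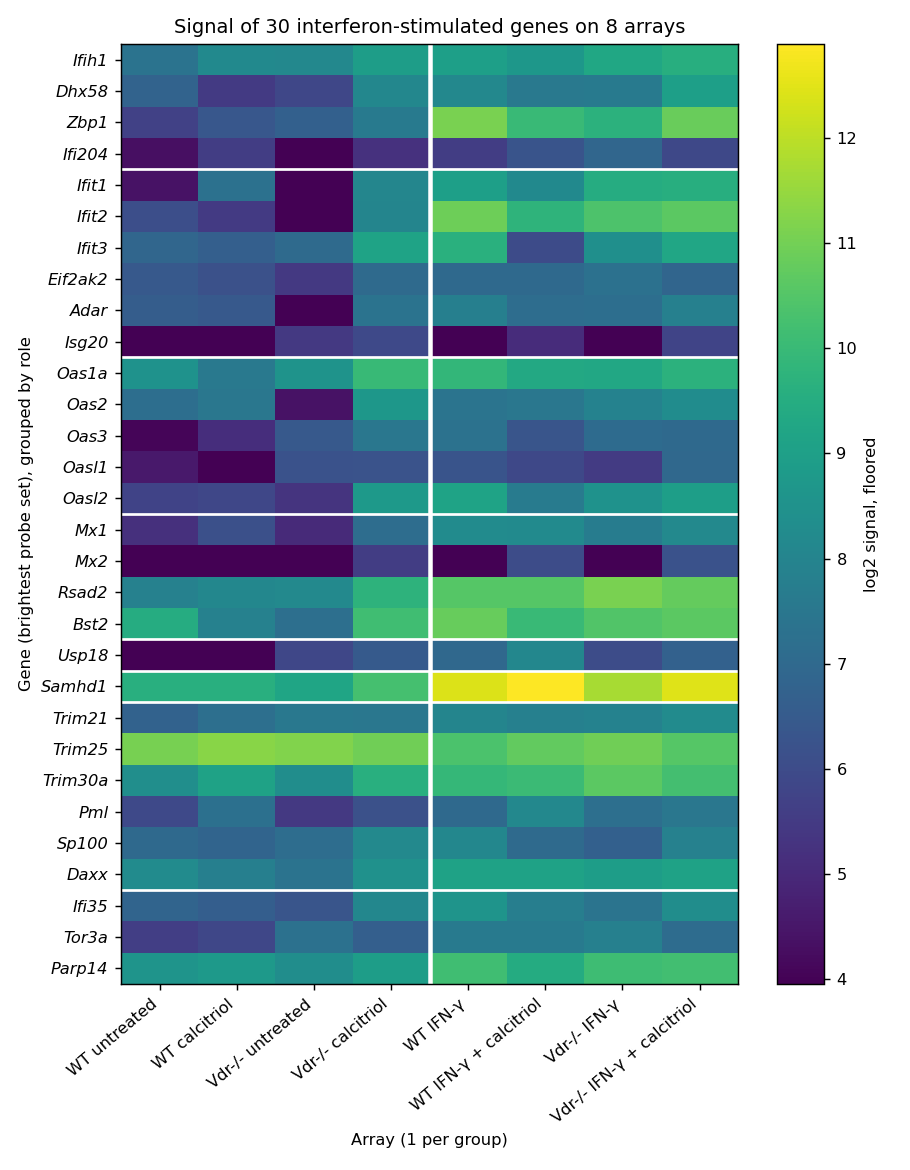
Log2 signal, floored at 15.5, of the 30 genes (rows, grouped by role) on the 8 arrays (columns, 1 per group, named by their labels). The 4 columns on the right are arrays with IFN-gamma, and the Vdr-/- calcitriol column is the highest of the 4 on the left for 25 of the 30 genes.

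Values below are signals in 1 fixed order: wild type without and with calcitriol, then Vdr-/- without and with calcitriol. Without IFN-gamma, the values for no calcitriol come from the arrays labelled untreated. Before log2 was taken, any value under 15.5 (the pooled 25th percentile) was raised to 15.5, which understates the change of dim genes.

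Among the IFIT genes, whose products bind viral RNA and hold back its translation, Ifit2 had the largest change of the 30. Without IFN-gamma it read 67.9, 44.3, 6.8 and 260.4, and with IFN-gamma 1918, 868, 1346 and 1607. Every array with IFN-gamma lay above every array without it, and the highest without IFN-gamma was Vdr-/- calcitriol. Ifit2 rose by 4.54 log2 (SE 0.389, limma adjusted p = 1.32e-08), or 23.3-fold. Ifit1 read 20.9, 155.5, 9.6 and 268.7 without IFN-gamma and 506, 295, 724 and 747 with it. It rose by 3.14 log2 (SE 0.518, adjusted p = 3.36e-04), and its arrays did not overlap, though by a narrow margin. In single pairs its change was 4.60 and 5.55 log2 without calcitriol but 0.92 and 1.47 with calcitriol on both arrays.

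Ifit3, the partner that stabilises IFIT1 complexes, did not pass the test. It read 119.4, 100.2, 133.2 and 566.1 without IFN-gamma and 783.5, 64.4, 337.9 and 612.3 with it. The wild-type array with both agents was the lowest of all 8, and the groups overlapped. Its change over the pairs was 0.88 log2 (SE 0.388, adjusted p = 0.334), from 2.71 in the wild-type pair without calcitriol to -0.64 in the wild-type pair with it, and -0.26 in the fit without the 2 arrays labelled untreated.

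The other RNA effectors were dim and not called. Eif2ak2, the dsRNA-activated kinase PKR that stops translation, read 43.0 to 131.7 without and 118.3 to 156.0 with IFN-gamma (0.77 log2, adjusted p = 0.532). A second Eif2ak2 probe set went the other way, at -0.77 log2 (adjusted p = 0.595). Adar, which edits adenosine in dsRNA, read 6.7 to 164.7 without and 140.7 to 228.2 with IFN-gamma (1.41 log2, adjusted p = 0.116). Isg20, an RNA exonuclease, read at most 60.8 on any array and was not higher in 3 of 4 pairs (-0.12 log2, adjusted p = 0.973).

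Among nucleic acid sensors and their regulators, 3 of 4 genes rose. Zbp1, a sensor of Z-form RNA that can start necroptosis, read 51.1, 83.0, 104.2 and 201.4 without IFN-gamma. With IFN-gamma it read 2208, 1021, 840 and 1828. The groups lay far apart, and Zbp1 rose by 3.81 log2 (SE 0.319, adjusted p = 9.27e-09). A dimmer second probe set rose by 4.34 log2 (adjusted p = 3.05e-06).

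Ifih1, the cytosolic dsRNA sensor MDA5, read 165.1, 293.6, 277.7 and 491.6 without IFN-gamma and 518, 412, 617 and 746 with it. It rose by 0.97 log2 (SE 0.261, adjusted p = 0.0348), with overlap of the Vdr-/- calcitriol array and the wild-type array with both agents. Dhx58, the regulator LGP2 of that sensor family, read 110.9, 44.9, 58.3 and 275.7 without and 280.3, 190.4, 195.7 and 507.8 with IFN-gamma. It rose by 1.51 log2 (SE 0.346, adjusted p = 0.0102), while a dimmer probe set at 1.41 log2 did not pass (adjusted p = 0.384). Ifi204, a DNA-binding PYHIN protein, read 4.0 to 48.0 without and 47.4 to 120.4 with IFN-gamma (1.39 log2, adjusted p = 0.359). PYHIN neighbours appeared in shared probe sets: 1 named by Ifi211 and Ifi205 rose by 2.34 log2 (adjusted p = 1.33e-05), and 1 named by Ifi203, its pseudogene and LOC100862473 rose by 1.61 log2 (adjusted p = 0.00161). Other shared probe sets of these genes did not pass. The one named by Mndal, Ifi211, Ifi205 and Ifi204 changed by 1.27 log2 (adjusted p = 0.399), and a second one for Ifi203 by 0.57 (adjusted p = 0.788).

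**Figure D2:**
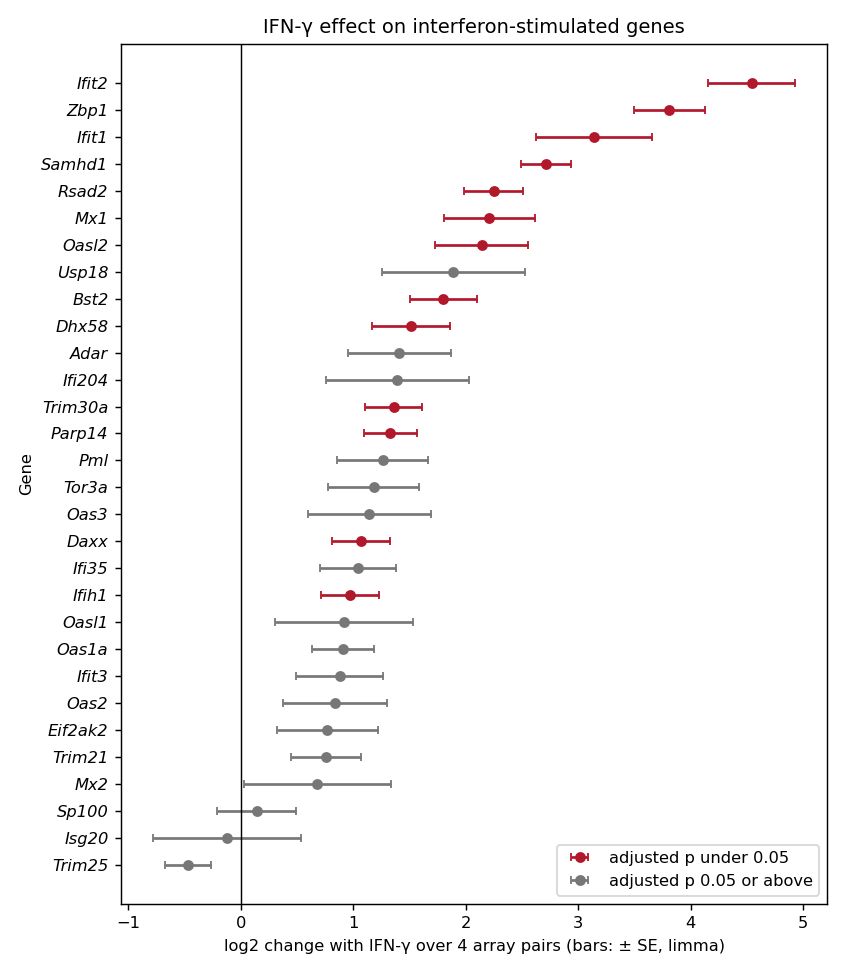
Log2 change with IFN-gamma over 4 array pairs for each of the 30 genes, with the SE of the limma fit as bars, sorted by size. The 13 genes in red had an adjusted p under 0.05, from Ifit2 at 4.54 to Ifih1 at 0.97, and Trim25 and Isg20 lay below 0.

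The oligoadenylate synthetases make a second messenger that activates RNase L, and their change was smaller, with a median of 0.92 log2 over 5 genes. Oasl2, an OAS-like protein with ubiquitin-like domains, was the only one of the 5 that rose. It read 54.5, 58.6, 38.9 and 445.8 without IFN-gamma and 560.5, 203.8, 365.2 and 502.4 with it (2.14 log2, SE 0.414, adjusted p = 0.00202). The Vdr-/- calcitriol array alone overlapped the arrays with IFN-gamma. Oas1a read 368.7, 188.8, 374.6 and 999.1 without and 933.9, 648.3, 641.3 and 837.8 with IFN-gamma (0.91 log2, adjusted p = 0.0792). Its highest array of all 8 was thus Vdr-/- calcitriol, without IFN-gamma, and the same held for Oas2 (407.9) and Oas3 (181.7). Oas2, Oas3 and Oasl1 changed by 0.84, 1.14 and 0.92 log2 with adjusted p of 0.396 to 0.609.

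Of the GTPases and membrane effectors 3 of 4 rose. Rsad2, the radical SAM enzyme viperin that makes a chain-terminating nucleotide, read 237.9, 275.9, 288.2 and 852.0 without IFN-gamma. With IFN-gamma it read 1471, 1482, 2187 and 1754, above all arrays without it. It rose by 2.25 log2 (SE 0.262, adjusted p = 2.41e-06), or 4.77-fold. Of its 2 dimmer probe sets 1 also rose (2.09 log2, adjusted p = 0.00466) and 1 did not pass (1.30 log2, adjusted p = 0.279). Mx1, a dynamin-like GTPase that traps viral nucleocapsids, read 36.9, 69.9, 32.3 and 142.9 without and 305.8, 299.8, 207.8 and 286.7 with IFN-gamma. It rose by 2.21 log2 (SE 0.407, adjusted p = 0.00121), with no overlap.

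Bst2, the membrane protein tetherin that holds budding virions on the cell, was already bright without IFN-gamma, at 718, 237, 149 and 1136. With IFN-gamma it read 1811, 1043, 1404 and 1612. It rose by 1.80 log2 (SE 0.300, adjusted p = 3.63e-04), and only the Vdr-/- calcitriol array reached into the range with IFN-gamma. Mx2, a cytoplasmic relative of Mx1 in mice, read 5.2, 4.5, 9.8 and 47.9 without and 5.2, 65.8, 14.2 and 73.7 with IFN-gamma (0.68 log2, adjusted p = 0.753). It was above the floor on 3 arrays, all of them with calcitriol.

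ISG15 is a ubiquitin-like modifier, and USP18 removes it and damps the type I receptor. The probe set shared by Isg15 and Gm9706 read 177.0, 11.6, 51.2 and 239.0 without and 415.5, 160.2, 213.2 and 222.8 with IFN-gamma. It rose by 1.64 log2 (SE 0.447, adjusted p = 0.0394), with overlap. Usp18 read 5.6, 8.1, 57.8 and 89.0 without and 124.6, 272.3, 65.2 and 105.6 with IFN-gamma (1.89 log2, adjusted p = 0.136). Its change was 3.01 and 4.13 log2 in the wild-type pairs and 0.17 and 0.25 in the Vdr-/- pairs. The difference of 3.36 log2 had an unadjusted p of 0.00581 and an adjusted p of 0.996.

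Samhd1, which hydrolyses dNTPs and so starves reverse transcription, was the brightest gene called. It read 782, 769, 590 and 1222 without IFN-gamma and 5531, 7617, 3379 and 5648 with it. It rose by 2.71 log2 (SE 0.222, adjusted p = 6.02e-09), or 6.56-fold, from 2.21 to 3.31 log2 in single pairs. Its 3 other probe sets also rose, by 1.13 to 2.67 log2. It was the 1 member called without the wild-type calcitriol and Vdr-/- untreated arrays (2.45 log2, adjusted p = 0.0378). The probe set shared by the DNA exonuclease gene Trex1 and Atrip rose by 1.73 log2 (adjusted p = 9.72e-05).

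Of the TRIM and PML body genes 2 of 6 rose. Trim30a, a negative regulator of Toll-like receptor signalling, read 331, 546, 325 and 778 without and 962, 1072, 1605 and 1206 with IFN-gamma. It rose by 1.36 log2 (SE 0.253, adjusted p = 0.00132), with no overlap, while its dimmer own probe set changed by 0.44 (adjusted p = 0.641) and the one shared with Trim30d by 0.90 (adjusted p = 0.399). Daxx, a histone chaperone of PML bodies, read 311.2, 227.3, 164.4 and 358.7 without and 554.4, 547.6, 490.6 and 548.6 with IFN-gamma. The groups did not overlap, and Daxx rose by 1.07 log2 (SE 0.259, adjusted p = 0.0164). When the 2 untreated arrays swapped labels, neither Daxx (adjusted p = 0.0538) nor Ifih1 (adjusted p = 0.102) was called, and 11 of 30 genes were. Trim21, a cytosolic antibody receptor, had no overlap either but was not called (0.76 log2, adjusted p = 0.271, and 1.20 with adjusted p = 0.341 for a second probe set). Pml changed by 1.26 log2 (adjusted p = 0.104) and Sp100 by 0.14 (adjusted p = 0.92). Trim25, a ubiquitin ligase in the RIG-I pathway, was lower with IFN-gamma in 4 of 4 pairs, at 1976 to 2534 without and 1319 to 1997 with it (-0.47 log2, adjusted p = 0.332). Its other probe sets changed by -0.54 and -0.24.

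Among the remaining genes, Parp14, a mono-ADP-ribosyltransferase, read 379.6, 431.8, 322.5 and 492.6 without and 1145, 708, 1111 and 1158 with IFN-gamma. The groups did not overlap, and it rose by 1.33 log2 (SE 0.236, adjusted p = 8.01e-04). Ifi35 and Tor3a were higher in 4 of 4 pairs each, by 1.04 log2 (adjusted p = 0.109) and 1.18 log2 (adjusted p = 0.144, and 0.67 for a second Tor3a probe set).

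Of the 13 calls, those on Samhd1 and Zbp1 held with each of the 4 pairs left out in turn. Calls numbered 3 without the Vdr-/- pair lacking calcitriol (Zbp1, Ifit2 and Samhd1), 4 without the wild-type pair lacking calcitriol (the same genes and Rsad2), 3 without the wild-type pair with calcitriol (Zbp1, Samhd1 and Parp14) and 12 without the Vdr-/- pair with calcitriol. Over all 18058 probe sets, calls in either direction fell too, from 619 to 99, 152, 123 and 420 in these fits.

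The IFN-gamma-inducible GTPases, GBP and IRG proteins that attack vacuoles of intracellular pathogens, served as a reference for the cytokine itself. All 9 measured genes rose, with a median of 4.04 log2 and no overlap on any of them. Of these, 3 (Gbp2b, Gbp3 and Gbp6) passed the filter only through arrays with IFN-gamma, and the other 6 would have passed without them. Without the 2 arrays labelled untreated 6 of these 9 were still called, against 0 of the 30 antiviral genes. The median change in single pairs was 5.10, 4.26, 5.29 and 3.74 log2 for the GTPases, in the order used above. For the antiviral genes it was 1.56, 1.17, 1.76 and 0.60. The Vdr-/- pair with calcitriol had the smallest median in each set. In the Vdr-/- pair without it, with the largest medians, both arrays had raised Gapdh ratios (4.82 and 3.06), whose part was not tested. Their beta-actin ratios were 3.27 and 1.53, so that control was raised on the untreated array alone. In the pair with calcitriol 9 of 9 GTPases but 8 of 30 antiviral genes were at least 2-fold higher (12.3% of all probe sets). No test compared the lists.

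**Figure D3:**
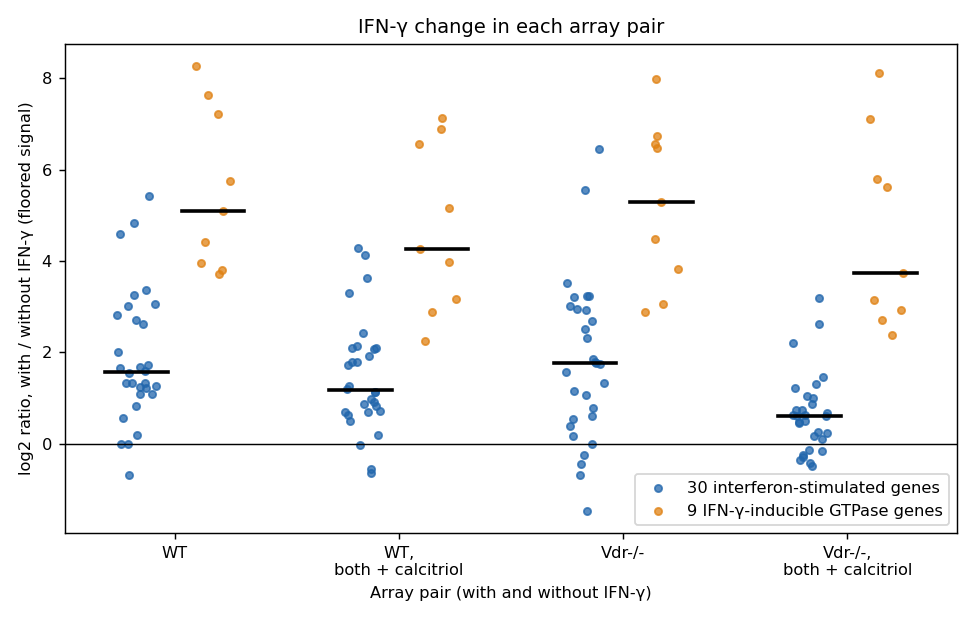
Log2 ratio of the array with IFN-gamma to the array without it, in each of the 4 pairs, for the 30 antiviral genes (blue) and 9 GTPase genes (orange). Points are genes and black bars are medians, 0.60 for the antiviral genes and 3.74 for the GTPases in the Vdr-/- pair with calcitriol.

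Upstream of these genes, 7 of 24 listed signalling genes tested rose with IFN-gamma and 0 fell. They included the transcription factors Irf1 (3.69 log2), Stat2 (2.59) and Irf7 (1.58), the feedback inhibitor Socs1 (3.73) and the DNA-sensing adaptor Sting1 (1.53). Ifnb1, the gene of interferon beta itself, read 3.4 to 100.5 without and 11.5 to 35.3 with IFN-gamma (-0.92 log2, adjusted p = 0.635). Of 16 further interferon-stimulated genes 6 rose, among them Ifi47 (4.67 log2) and Rtp4 (2.00).

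Markers of plasmacytoid dendritic cells, the professional type I interferon producers, were low. The 6 measured of 7 summed to 421.9 to 657.2 without and 374.8 to 559.6 with IFN-gamma, most of it Tcf4. Stromal markers, which were collagen genes with Sparc and Dcn, summed to 335.6 to 526.8 without and 89.6 to 243.8 with IFN-gamma. Of these, Col3a1 fell (limma adjusted p = 0.0308). Of the 7 macrophage markers 1, C1qa, rose with IFN-gamma (1.74 log2, adjusted p = 1.57e-04), and their median was -0.29. The part of these cells in the results was not tested.

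The arrays without IFN-gamma were not alike, and the Vdr-/- calcitriol array stood above the other 3. The median signal of the 30 genes was 272.2 on it, against 83.6 to 102.8 on the other 3 arrays without IFN-gamma and 243.0 to 412.8 on the arrays with IFN-gamma. It was the highest of the 4 for 25 of 30 genes (18.6% of all probe sets). The median signal of the GTPases there was 90.6, against 35.3 to 52.9 on the other 3 and 1519 to 2163 with IFN-gamma. This pattern was noticed after the values were seen and rests on 1 array, so it has no test.

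Set against the array labelled wild-type untreated, which had no raised 3'/5' ratio, the Vdr-/- calcitriol array was at least 2-fold higher for 20 of 30 genes (11.6% of all probe sets). The median was 1.38 log2 for the antiviral genes and 0.46 for the GTPases. Ifit1 (3.68 log2), Oas3 (3.42), Oasl2 (3.03), Usp18 (2.52) and Ifit3 (2.25) were the farthest apart. Of the further interferon-stimulated genes 8 of 16 were at least 2-fold higher on it. Rtp4, a receptor transporting protein, read 432.4, 277.7 and 294.3 on the other 3 arrays without IFN-gamma and 2090 on Vdr-/- calcitriol. Ifnb1 read 37.4 there, between 3.4 and 100.5 on the other 3. Macrophage markers summed to 56478 on this array, inside the range of the other 3, a sum carried by Csf1r and Lyz2. Of the 7 markers 4 were nonetheless highest of the 4 arrays there: Itgam at 977.6 (80.0 to 396.8 on the other 3), Adgre1 at 6445 (2475 to 2832), Cd68 at 7964 (1976 to 6140) and C1qa at 4758 (949 to 3651). Over the array labelled wild-type untreated, 2 of 7 were at least 2-fold higher and the median was 0.38 log2. Their part in the pattern was not tested. The Gapdh ratio of this array was 0.853, the lowest of the 8.

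Genotype was compared over 4 treatment pairs, to ask whether loss of the receptor alone moves these genes. None of the 30 was called by limma (0 of 18058 probe sets, background 0.0%), and 4 of 30 had an unadjusted p under 0.05 (background 3.38%). The median was 0.35 log2 higher in Vdr-/-, and it was 0.06 without the pair with calcitriol alone. By treatment the median of Vdr-/- over wild type was -0.11 log2 untreated, 1.22 with calcitriol, -0.22 with IFN-gamma and 0.60 with both. The untreated value rests on the 2 arrays whose Vdr signal went against their labels, and it is 0.11 with those labels exchanged. The response to IFN-gamma was not called as different between genotypes for any of the 30 genes by limma, with 4 at an unadjusted p under 0.05 (background 0.0% called, 3.52% at that p).

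Calcitriol was compared within each genotype, to ask whether the hormone moves antiviral genes and whether that needs its receptor. In wild type 0 of 30 genes were called by limma (background 0.576%), 4 had an unadjusted p under 0.05 (background 10.3%) and the median was 0.06 log2. In Vdr-/- 0 of 30 were called (background 0.194%), 14 had an unadjusted p under 0.05 (background 6.35%), and 28 of 30 were positive with a median of 0.90 log2. Macrophage markers moved too, with 1 of 7 called in Vdr-/- (Cd68, 1.66 log2, adjusted p = 0.0416) at a median of 0.86 log2, and a median of -0.38 in wild type. The Vdr-/- fit used the array labelled Vdr-/- untreated. Without the 2 arrays labelled untreated 23 of 30 were positive, with a median of 0.64 log2.

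The difference between the calcitriol effects, wild type minus Vdr-/-, was negative for 25 of 30 genes, with a median of -0.87 log2 against 0.16 over all probe sets. It was called for 2 of 30, both lower (background 1.33%), and 11 of 30 had an unadjusted p under 0.05 (background 12.2%). For Ifit3 calcitriol changed the signal by -1.93 log2 in wild type and 1.47 in Vdr-/-, a difference of -3.40 (SE 0.791, limma adjusted p = 0.0259). For Bst2 the changes were -1.20 and 1.57, a difference of -2.77 (SE 0.617, adjusted p = 0.0199). The shared Isg15 and Gm9706 probe set had -2.44 and 1.14, a difference of -3.59 (SE 0.872, adjusted p = 0.0337). The upstream sequences of Ifit3, Bst2 and Isg15 are printed above. They were picked for printing because of their ISRE cores and these results, so that overlap is not a finding. Ifit2 (-3.04, adjusted p = 0.0534) and Dhx58 (-2.74, adjusted p = 0.0517) missed the threshold. The windows of Ifit2 held no ISRE core, and Dhx58 had no window. Both arrays labelled untreated, whose Vdr signal went against their labels, enter each difference. With those labels exchanged neither Ifit3 (-3.56, adjusted p = 0.241) nor Bst2 (-0.49, adjusted p = 0.891) was called, nor the shared Isg15 probe set (-1.80, adjusted p = 0.729). The calls on Ifit3 (-4.09) and Bst2 (-1.81) were also lost in the fit without these 2 arrays (adjusted p = 0.83 for each). Neither Ifit3 (-4.46, adjusted p = 0.702) nor Bst2 (-1.0, adjusted p = 0.729) was called without the wild-type calcitriol and Vdr-/- untreated arrays. With the Gapdh ratio as a covariate Ifit3 was called at -7.41, while the difference of Bst2 turned to 0.22 and that of the Isg15 probe set to 0.94. That fit and those without 2 arrays had 1 residual degree of freedom. Over all probe sets the difference was called for 271 in the main fit and 73 with the Gapdh covariate. It was called for 0 with exchanged labels or without 2 arrays, so the calls lost there were not particular to these genes. Macrophage markers differed in the same direction: 3 of 7 were lower (Cd68 by -2.70 log2, adjusted p = 0.00408, Itgam by -3.63, 0.00448, and C1qa by -2.41, 0.0283), with a median of -1.06. A dimmer Csf1r probe set was also lower (-3.09, adjusted p = 0.00285), while another was not called (-0.69, adjusted p = 0.633). The dendritic cell marker Itgax was higher (2.32 log2, adjusted p = 0.0337). The part of these markers in the difference was not tested.

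Among arrays with IFN-gamma, calcitriol could be read from 1 pair in each genotype that used neither the arrays labelled untreated nor the wild-type calcitriol array. In wild type 20 of 30 genes were lower with calcitriol added, 6 of them at least 2-fold (background 16.2%), and 4 were at least 2-fold higher (background 15.7%). The median was -0.26 log2. In Vdr-/- 23 of 30 were higher, 6 at least 2-fold (background 11.3%), and 1 was at least 2-fold lower (background 11.9%), with a median of 0.36 log2. The median over all probe sets was 0.0 in both pairs. Macrophage markers were lower with calcitriol in wild type for 7 of 7 (median -0.75 log2) and higher in Vdr-/- for 5 of 7 (median 0.21). Dendritic cell markers summed to 1466 on the wild-type array with both agents, 1279 of it Itgax. They summed to 214.6 to 422.9 on the other 3 arrays with IFN-gamma, where Itgax read 108.3 to 277.8. The part of either marker set was not tested. The Vdr-/- pair joined an array with a Gapdh ratio of 3.06 to one of 1.08, while their beta-actin ratios were 1.53 and 1.48. Each pair has no replicate check, and the shares past 2-fold in wild type were near the background.

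Ifit3 stood farthest out, at 783.5 with IFN-gamma and 64.4 with both agents in wild type (-3.60 log2), against 337.9 and 612.3 in Vdr-/- (0.86 log2). Oasl2 changed by -1.46 log2 in wild type, Ifit2 by -1.14, Zbp1 by -1.11, Sp100 by -1.07 and Oas3 by -1.02. In Vdr-/- these genes had values of 0.46, 0.26, 1.12, 1.19 and -0.04. The wild-type array with both agents was the lowest of the 4 arrays with IFN-gamma for 11 of 30 genes (23.3% of all probe sets). Mx2, Isg20, Usp18 and Pml were higher with calcitriol in wild type, by 2.09, 1.13, 1.13 and 1.13 log2, and the first 2 had an array at the floor in that pair. Mx2 and Isg20 were also higher in Vdr-/-, by 2.25 and 1.85 log2. The GTPases had medians of -0.16 in wild type and -0.06 in Vdr-/-. In wild type 2 of 9 were at least 2-fold lower, Gbp2b at -1.38 log2 and Igtp at -1.07, and 0 at least 2-fold higher.

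**Figure D4:**
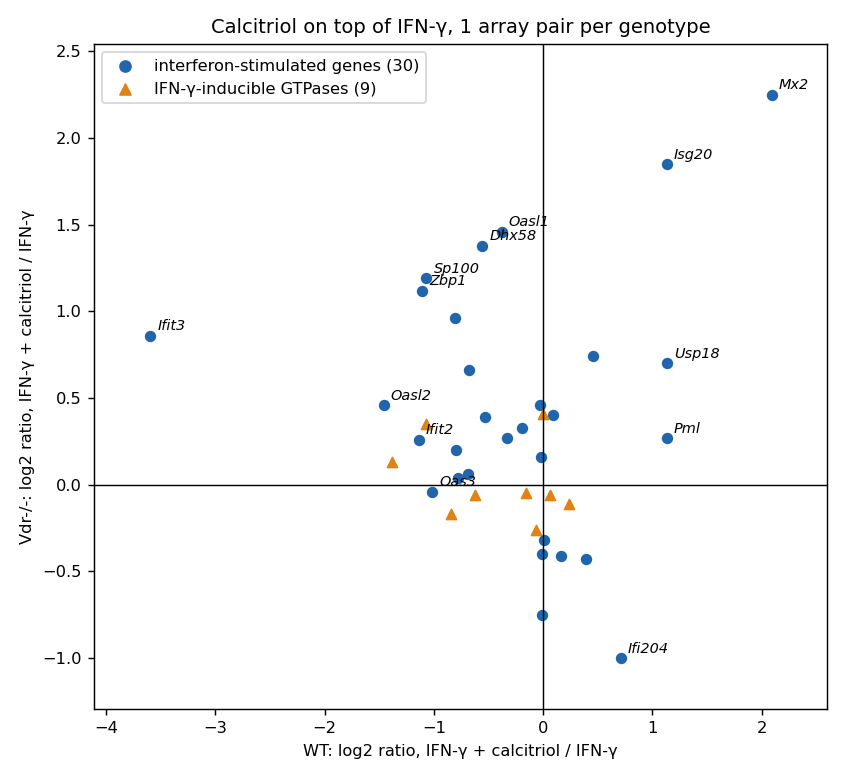
Log2 ratio of the array with IFN-gamma and calcitriol to the array with IFN-gamma alone, in wild type (horizontal axis) and Vdr-/- (vertical axis), for 30 antiviral genes (circles) and 9 GTPases (triangles). Antiviral genes at least 2-fold apart in either genotype are named, GTPases are not, and Ifit3 lies at -3.60 in wild type and 0.86 in Vdr-/-.

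The wild-type pair without IFN-gamma used both an array labelled untreated and the array with the highest Gapdh ratio. In it 4 of 30 genes were at least 2-fold higher with calcitriol (background 20.5%) and 2 at least 2-fold lower (background 19.4%), with a median of 0.05 log2. The Vdr-/- pair without IFN-gamma had 20 of 30 at least 2-fold higher (background 16.4%) and 0 at least 2-fold lower (background 19.6%), with a median of 1.27 log2.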

How the data were processed

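Total RNA was measured on 8 one-colour arrays, 1 per group. The deposited values were linear intensity signals per probe set, which the authors had scaled to a common 2% trimmed mean, as the values show (150.07 to 150.08). No source used here gives the scaling software or detection calls. Thioglycolate-elicited peritoneal cells are also described in the labels, while the source of every sample is bone marrow derived macrophages.

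Of 22690 probe sets, 64 controls were set aside. Signals were floored at the pooled 25th percentile (15.5) and taken to log2, and 18058 probe sets whose highest signal reached 59.1 were tested. By the annotation 20380 probe sets had 1 gene, 691 had several and 1555 had none, and a probe set with several names was never given to 1 gene. Where another own or shared probe set of a called gene was not called, this is said beside it. Models were fitted in limma 3.58.1 (R 4.3.3) with an intensity trend, two-sided, adjusted by Benjamini-Hochberg over all 18058. IFN-gamma and genotype were fitted over 4 pairs as blocks (3 residual degrees of freedom), and calcitriol and the differences with treatment effects within genotype (2 residual degrees of freedom). The residual spread of this latter fit comes from how the treatments interact. In all fits limma moderates the spread of a probe set with that of the others. Single pairs have no test, and 2-fold counts are set beside those over all probe sets. Fits were tested on simulated data. The number of arrays limits the precision.

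The members, the lists and most tests were chosen with earlier results of these data known. All members were described, with values per array for those called for IFN-gamma or farthest apart for calcitriol, with at most 8 named genes from the other pathway lists, and with marker genes where they moved. Alternatives were other scaling, filters, floors, no trend, the mean of probe sets, other covariates and pairs left out. Chosen after seeing the data were the fits without the arrays labelled untreated or with their labels exchanged, the calcitriol fits without the 2 arrays of highest 3'/5' ratio or with that ratio as a covariate, and all alternatives for single pairs. Python 3.11.15 with matplotlib 3.10.9 drew the figures.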

Additional observations from a re-analysis of the deposited data

Results flagged for a closer look

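The calcitriol effect differed between the genotypes, by the test of the difference itself, for 2 of 30 genes and 1 shared probe set. Of all 18058 probe sets, 1.33% were called with a negative difference, as these were. So were 3 of 7 macrophage markers (Cd68, Itgam and C1qa), whose part was not tested. The difference, wild type minus Vdr-/-, was -3.40 log2 for Ifit3 (SE 0.791, limma adjusted p = 0.0259), -2.77 for Bst2 (SE 0.617, adjusted p = 0.0199) and -3.59 for the probe set of Isg15 and Gm9706 (SE 0.872, adjusted p = 0.0337). For Ifit3 the signal was lower with calcitriol in 2 of 2 wild-type pairs and higher in 2 of 2 Vdr-/- pairs. The same held for Bst2, at -1.60 and -0.80 log2 in wild type and 2.94 and 0.20 in Vdr-/-. In the shared probe set it was lower in 2 of 2 wild-type pairs and higher in 2 of 2 Vdr-/- pairs, by as little as 222.8 against 213.2 with IFN-gamma. Both arrays with high 3'/5' ratios enter each of these differences, and so do both arrays labelled untreated, whose Vdr signal went against their labels. With those labels exchanged the differences were -3.56 for Ifit3 (adjusted p = 0.241), -0.49 for Bst2 (adjusted p = 0.891) and -1.80 for the shared probe set (adjusted p = 0.729). The wild-type pair without IFN-gamma then turned to 0.67 log2 for Bst2. It stayed negative for Ifit3 (-0.41) and the shared probe set (-1.72). The calls on Ifit3 and Bst2 were also lost with no filter, the stricter filter, the lower floor, no intensity trend, the mean of probe sets and without either set of 2 arrays, with adjusted p of 0.83 without the untreated arrays. The shared probe set also lost its call under quantile normalization (limma adjusted p = 0.0559), where Ifit3 and Bst2 kept theirs. Its call was lost too with no filter, the stricter filter, the lower floor, no intensity trend and without either set of 2 arrays. With the Gapdh ratio as a covariate Bst2 turned to 0.22 and the shared probe set to 0.94. That fit and those without either set of 2 arrays had 1 residual degree of freedom. Over all probe sets 0 were called with no filter, the stricter filter, no intensity trend, the labels exchanged and without either set of 2 arrays.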

How the results depend on the processing

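The 13 IFN-gamma calls ran from 10 to 13 under quantile normalization, both other floors, the stricter filter, the mean of probe sets, additive covariates, calcitriol as the only covariate, no block and the Gapdh ratio as a covariate. They were 11 when the untreated arrays swapped labels, and fell to 1 without a filter (Samhd1), 3 without the intensity trend, 1 without the 2 arrays of highest Gapdh ratio and 0 without the 2 arrays labelled untreated, the last 2 with fewer arrays. Leaving out 1 pair gave 3 to 12. Calls over all probe sets fell in the same fits, from 619 to 80 without a filter and 70 without the trend. They were 53 and 24 without the 2 sets of arrays, and 99 to 420 with 1 pair left out. No gene of the 13 changed sign in any of 18 alternatives. Of 536 values of single genes, 92 lost their call, 1 gained it and 10 changed sign, all for genes not called. These were Isg20 (-0.53 to 0.33 with 1 pair left out, 0.50 without the untreated arrays), Oas2 (-0.06 to 1.23 and -0.19 likewise, -0.16 without the arrays of highest Gapdh ratio), Ifit3 (-0.26 without the untreated arrays) and Sp100 (-0.17 to 0.34 with 1 pair left out, -0.16 without the arrays of highest Gapdh ratio, -0.10 with that ratio as a covariate, -0.04 without the untreated arrays). The 2 calls for the difference in calcitriol effect stayed at 2 under quantile normalization and were 4 with the higher floor, 1 with the Gapdh covariate (Ifit3, while Bst2 reversed to 0.22) and 0 with no filter, the stricter filter, the lower floor, no trend, the mean of probe sets, the untreated labels exchanged and without either set of 2 arrays. Over all probe sets this difference had 271 calls in the main fit. It had 100 with the lower floor, 84 with the mean of probe sets and 73 with the Gapdh covariate. It had 0 with no filter, the stricter filter, no trend, the untreated labels exchanged and without either set of 2 arrays. With the Gapdh covariate calcitriol was called for 1 gene in wild type (Ifit3) and 3 in Vdr-/- (Zbp1, Ifit1 and Ifit3), and for 0 under every other setting tried. The calcitriol fits with that covariate or without either set of 2 arrays had 1 residual degree of freedom. Genotype and the difference in IFN-gamma effect gave 0 calls among the 30 genes in every fit. Over all probe sets they gave 7 and 109 calls with the untreated labels exchanged, against 0 and 0 with the labels as given. For single pairs with IFN-gamma, genes at least 2-fold lower with calcitriol were 5 to 6 in wild type and 0 (quantile normalization) to 1 in Vdr-/-. The pairs of arrays used as blocks share a genotype or treatment, and no pairing by replicate number could be made, since each group has 1 array. Other causes of these shifts were not tested. Signal over background limits the dim genes, with up to 5 of the 30 at the floor on an array.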
